A study of Mus musculus with 9 samples.

Results

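Glycolysis splits glucose into pyruvate in the cytosol. Glucose enters through transporters of the Slc2a family, is trapped and rearranged by hexokinase and glucose-6-phosphate isomerase, is committed at phosphofructokinase, and is cut and oxidised in the steps from aldolase to pyruvate kinase. Pyruvate is then either reduced to lactate by lactate dehydrogenase and exported by monocarboxylate transporters, or carried into mitochondria and oxidised by the pyruvate dehydrogenase complex, which pyruvate dehydrogenase kinases switch off. Regulatory T cells (Treg cells), which restrain immune responses, are known to rely on mitochondrial oxidation more than effector T cells do, while proliferating T cells of any kind raise glycolysis. The genes described here cover this route with its regulators: 2 glucose transporters, the enzymes from hexokinase to lactate dehydrogenase, 2 lactate exporters, the Pfkfb enzymes that set the level of the phosphofructokinase activator fructose 2,6-bisphosphate, the pyruvate dehydrogenase kinases, 3 subunits of pyruvate dehydrogenase, and the oxygen-sensing genes Vhl, Egln1 and Egln3, which restrain hypoxia-inducible factor. They were chosen by symbol, 35 of the 26683 genes in the count table, and each symbol was found once.

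RNA was sequenced in bulk from splenic Treg cells of female mice aged 2 to 3 months, sorted as CD4+ cells that carry the YFP reporter of Foxp3, with 1 library per mouse. The 5 control mice (WT 1 to WT 5) were B6N.Foxp3YFP-Cre and the 4 knockout mice (KO 1 to KO 4) were EsrrgNf/f.Foxp3YFP-Cre. Both groups therefore carried Cre recombinase driven by Foxp3, and the KO mice carried floxed Esrrg in addition, so deletion was directed to cells that express Foxp3. The floxed gene, Esrrg, codes for the nuclear receptor ERRγ, which is known as a regulator of energy metabolism. The genotype label of WT begins with B6N and that of KO does not. WT libraries also have names with B6-N and KO libraries names with Err. Should these labels stand for a difference in strain or colony, its effect cannot be told apart from genotype.

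The libraries held 15269014 to 17425634 counts each. Esrrg had 0 counts in each of the 9 libraries, so the counts do not check the knockout. The Treg markers Cd4, Cd3e, Foxp3, Il2ra, Ctla4 and Ikzf2 summed to 4185 to 4407 CPM (counts scaled to a common library size) in WT and 4129 to 4409 in KO, and 0 of 6 passed the test, while of the CD8 T cell markers Cd8a was at 0.263 to 0.626 CPM and Cd8b1 at 9.14 to 13.2 CPM. Some libraries stood apart. KO 4 had 27 counts of Xist, the RNA of the inactive X chromosome, against 27355 to 35693 in the others, which goes against its label as female. Immunoglobulin genes took 0.801% of counts in KO 4 and 0.299% in KO 1 against 0.104% to 0.161% elsewhere, and 6 immediate early genes summed to 4859 CPM in WT 1 against 700 to 1189 CPM elsewhere.

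Of the 35 genes, 34 entered the test, and Pdk4, a pyruvate dehydrogenase kinase induced by fasting in other tissues, had 0 counts in all 9 libraries. Ldha, the muscle-type subunit of lactate dehydrogenase, was higher in KO by 16.9%, and Eno3, the muscle-type enolase, fell by 19.7%. These were the only genes of the route to pass, at a threshold of 0.05 on the adjusted p. The share called among all 12738 genes tested was 3.28% in either direction, 1.4% higher and 1.88% lower, so 2 of 34 is near that background. The groups did not overlap in 7 of the 34 genes, against 9.07% of all genes tested. Gpi1, Ldha and Pdk3 were higher in every KO library than in every WT library, and Slc2a1, Pfkm, Eno3 and Pdk2 were lower. Unadjusted p was under 0.05 for 11 of the 34 genes and for 21.6% of all genes tested. The log2 fold change (KO over WT) was positive for 20 genes and negative for 14, with a median of 0.03 against 0.01 over all genes tested, and it ran from -0.32 for Eno3 to 0.80 for Hk3. Because the samples are bulk RNA, fewer cells of a type and less RNA per cell cannot be told apart in any of these values.

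Promoter sequence is shown for Ldha and Eno3, which passed the test, and for Pdk1, which did not pass but had the next most negative log2 fold change. Each line gives the 150 bases before a RefSeq transcript start on GRCm38.p6, 5′ to 3′ on the gene's strand, in lower case. Capitals mark ACGTG or GCGTG, the core that hypoxia-inducible factor is known to bind, on either strand (CACGT or CACGC when read on the other). The half-site AAGGTCA, which estrogen-related receptors are known to bind, would also be in capitals and was not found in these 3 stretches. The Ldha stretch is chr7:46845654-46845803 on the plus strand, the Eno3 stretch is chr11:70657026-70657175 on the plus strand, and the Pdk1 stretch is chr2:71873074-71873223 on the plus strand, where the last 2 capitals belong to a match that runs past the start.
Ldha: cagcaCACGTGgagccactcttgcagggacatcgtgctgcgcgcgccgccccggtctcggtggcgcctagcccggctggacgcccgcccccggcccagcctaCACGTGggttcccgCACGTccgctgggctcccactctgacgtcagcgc
Eno3: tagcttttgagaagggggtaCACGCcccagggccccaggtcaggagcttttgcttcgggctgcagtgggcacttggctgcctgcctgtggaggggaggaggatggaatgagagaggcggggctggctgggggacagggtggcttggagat
Pdk1: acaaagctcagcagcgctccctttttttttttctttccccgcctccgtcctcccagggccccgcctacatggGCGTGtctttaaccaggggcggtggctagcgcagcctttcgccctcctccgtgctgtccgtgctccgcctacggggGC

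RefSeq gave a window from 250 bases before to 50 bases after the start for all of the 35 genes but Slc2a3, some with several starts. ACGTG was present on either strand in a window of 21 of these genes (61.8%), against 29.6% of the 9086 tested genes that had a window. A gene counted if any of its windows matched, so genes with several starts had more chances. By window, ACGTG was present in 25 of 50, against 23.1% of the windows of all genes in the count table, tested or not. GCGTG was present in 22 (64.7%) against 56.3%. CACGTG, the E-box that Myc is known to bind and that contains ACGTG, was present in 6 genes (17.6%) against 11.9%: Pfkm, Ldha, Slc16a1, Pfkfb2, Pfkfb3 and Pdk2. AAGGTCA was present in Tpi1 and Eno1, 5.88% of the genes against 3.96%. These are matches of letters in a window, and no binding was measured.

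Levels spanned a wide range in WT when divided by transcript length. Per kilobase, Ldha stood at 226 ± 11.8 CPM (SD, n = 5), Pkm at 220 ± 18.5, Aldoa at 198, Gapdh at 158, Gpi1 at 142 and Eno1 at 105. Ldha and Pkm, the enzymes on either side of pyruvate at the end of the route, differed by less than the spread between libraries. Pdha1 was at 73.3 CPM per kilobase, Hk1 at 55.3, Pdhb at 44.9, Pfkp at 35.7 and Slc2a3 at 33.3. At the other end, Hk2 stood at 1.43 CPM per kilobase, Hk3 at 0.461, Aldoc at 2.08, Slc16a3 at 2.77 and Pfkfb2 at 2.35. Pgam1 stood at 5.55 CPM per kilobase. Levels of genes with near-identical copies, Pgam1, Ldha, Pkm and Gapdh among them, carry a limit of counting given below. All 35 genes together took 0.372% ± 0.0136 of counts in WT (SD, n = 5) and 0.391% ± 0.0119 in KO (SD, n = 4).

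Neither glucose transporter passed the test. Slc2a1 (GLUT1), the transporter that activated T cells raise, was at 48.3, 54.0, 51.8, 49.9 and 50.7 CPM in WT 1 to WT 5 and at 46.7, 43.7, 48.2 and 42.0 CPM in KO 1 to KO 4. All 4 KO libraries were below the lowest WT library, WT 1, although KO 3 was close to it. The log2 fold change of -0.17 ± 0.05 (SE, n = 5 and 4) did not pass (edgeR adjusted p = 0.0918). Slc2a3 (GLUT3), a transporter of high affinity, was at 131, 133, 141, 126.3 and 128 CPM in WT and at 134, 133, 123 and 129 CPM in KO. KO 3 was the lowest library and WT 3 the highest, and the other 7 lay within 126.3 to 134 CPM, at -0.02 (adjusted p = 0.785). Per transcript length, Slc2a3 made up 68.0% ± 1.001 of the summed level of the pair in WT and 70.3% ± 1.81 in KO.

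Hexokinase, which traps glucose as glucose 6-phosphate, was nearly all Hk1. Hk1, the form that binds mitochondria in most tissues, was at 216, 225, 201, 213 and 209.5 CPM in WT and at 224, 224, 223 and 238 CPM in KO. WT 2 lay among the KO libraries and KO 4 lay above all others, with a log2 fold change of 0.10 (adjusted p = 0.188). Hk2, the inducible form raised in activated T cells, was at 8.58, 8.79, 6.70, 7.83 and 7.39 CPM in WT and at 8.83, 7.32, 7.68 and 11.1 CPM in KO. KO 4 alone stood well above the WT range (adjusted p = 0.538). Hk3, a form known from myeloid cells, was at 1.93, 1.15, 1.45, 1.45 and 1.44 CPM in WT and at 2.45, 1.22, 1.38 and 5.27 CPM in KO. KO 1 and KO 4 were high and KO 2 and KO 3 were within the WT range, so that its fold change, the largest among the 34 genes, had an interval from -0.07 to 1.66 (adjusted p = 0.265). In the same libraries the neutrophil markers S100a8, S100a9, Ly6g, Elane, Mpo and Retnlg summed to 34.9 CPM in KO 1 and 125 CPM in KO 4 against 1.48 to 4.83 CPM in the other 7, and 6 macrophage and monocyte markers to 66.7 and 108 CPM against 18.1 to 65.9 CPM. Their part in the level of Hk3 was not tested. The isomerase Gpi1, which makes fructose 6-phosphate, was at 421, 433, 378, 421 and 396 CPM in WT and at 459, 439, 445 and 444 CPM in KO, without overlap (log2 fold change 0.12, adjusted p = 0.123).

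Phosphofructokinase, the committed step, had the platelet-type subunit Pfkp as its most abundant form. Pfkp was at 154, 147, 147, 141 and 151 CPM in WT and at 152, 155, 148 and 159 CPM in KO, with overlapping groups (adjusted p = 0.443). Pfkm, the muscle-type subunit, was at 30.9, 33.95, 32.5, 31.2 and 34.0 CPM in WT and at 29.7, 29.9, 25.7 and 29.6 CPM in KO. Every KO library was below every WT library and KO 3 was lowest, at a log2 fold change of -0.18 ± 0.06 (adjusted p = 0.110). The liver-type subunit Pfkl differed by less than its spread, at 68.6 ± 3.12 and 70.2 ± 3.00 CPM (adjusted p = 0.712). Of the Pfkfb enzymes, Pfkfb3, the form with the strongest kinase activity, was at 83.5, 76.8, 77.2, 75.4 and 79.5 CPM in WT and at 73.8, 82.2, 81.3 and 72.2 CPM in KO. KO 1 and KO 4 were below all WT libraries and KO 2 and KO 3 were within their range (adjusted p = 0.848). Pfkfb2 was at 10.4 ± 0.548 and 10.1 ± 0.804 CPM and Pfkfb4 at 11.1 ± 0.947 and 10.5 ± 0.980 CPM, and neither passed (adjusted p = 0.804 and 0.678).

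Of the genes from aldolase to phosphoglycerate mutase, all but Aldoc had a higher mean in KO, and none passed. Aldoa, the aldolase of muscle and most dividing cells, was at 289, 336, 285, 292 and 294 CPM in WT and at 349, 329, 334 and 343 CPM in KO. WT 2 was the only WT library inside the KO range, and the log2 fold change was 0.18 ± 0.05 (adjusted p = 0.0618). With DESeq2 Aldoa passed (adjusted p = 0.0137). With edgeR it did not pass without KO 4 (0.17, adjusted p = 0.164) or without KO 1 and KO 4 together (0.15, adjusted p = 0.293). Aldoa passed in 3 of 20 alternative settings. They were DESeq2, the fit without WT 2, and a block by the library number in brackets, which leaves WT 2 without a partner. Aldoc, the brain-type form, was at 5.50, 5.396, 5.25, 7.17 and 5.70 CPM in WT and at 4.90, 5.52, 6.43 and 6.13 CPM in KO (adjusted p = 0.963). The isomerase Tpi1, which interconverts the triose phosphates that aldolase makes, was at 50.2, 63.4, 47.3, 47.4 and 46.5 CPM in WT and at 66.7, 48.9, 49.4 and 64.1 CPM in KO. WT 2, KO 1 and KO 4 formed a high set and the other 6 libraries lay within 46.5 to 50.2 CPM (log2 fold change 0.17, adjusted p = 0.465, and 0.26 without WT 2, adjusted p = 0.163). Gapdh, which makes the NADH that lactate dehydrogenase uses up, was at 236, 245, 211, 221 and 211 CPM in WT and at 279, 230.1, 240.0 and 262 CPM in KO. The same 3 libraries were highest, at a log2 fold change of 0.17 ± 0.06 (adjusted p = 0.148). Pgk1, the first ATP-making step, was at 49.3, 61.0, 42.4, 50.8 and 47.7 CPM in WT and at 57.6, 52.6, 52.2 and 61.8 CPM in KO, again highest in those 3 libraries (log2 fold change 0.16, adjusted p = 0.353, and 0.24 without WT 2, adjusted p = 0.0711). The mutase Pgam1 was at 9.37, 10.4, 8.57, 10.6 and 10.3 CPM in WT and at 11.8, 10.02, 10.8 and 13.2 CPM in KO (log2 fold change 0.22, adjusted p = 0.247).

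Enolase and pyruvate kinase close the route to pyruvate. Eno3 (mm10, chromosome 11, 70657202 to 70662513, plus strand) was at 41.1, 44.2, 44.6, 47.4 and 48.4 CPM in WT and at 37.0, 38.8, 38.1 and 31.1 CPM in KO. Every KO library was below the lowest WT library, WT 1, and KO 4 was lowest. Eno3 fell from 45.1 ± 2.88 (SD, n = 5) to 36.3 ± 3.53 CPM (SD, n = 4), a log2 fold change of -0.32 ± 0.07 (SE, 95% interval -0.47 to -0.16, edgeR adjusted p = 0.0339). Eno1, the enolase of most tissues, was at 201, 229, 220.3, 213 and 204 CPM in WT and at 204, 233, 219.6 and 215 CPM in KO, with no separation (log2 fold change 0.03, adjusted p = 0.788). With each library left out in turn, the log2 fold change of Eno3 ran from -0.35 to -0.25. It passed without WT 1, without WT 2 and without KO 2, and its adjusted p was 0.0541 to 0.0886 without each of WT 3, WT 4, WT 5, KO 1, KO 3 and KO 4. Leaving out KO 1 and KO 4 together gave -0.23 (adjusted p = 0.165), and a fit with 1 surrogate variable, an unlabelled axis of variation estimated from the counts, gave -0.18 (adjusted p = 0.290). Pkm, the pyruvate kinase gene of lymphocytes, was at 526, 614, 508, 503 and 526 CPM in WT and at 588, 543, 543 and 596 CPM in KO. WT 2 was the highest of all 9 libraries, followed by KO 4 and KO 1 (log2 fold change 0.08, adjusted p = 0.422), and without WT 2 the log2 fold change was 0.14 (adjusted p = 0.0784).

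Lactate dehydrogenase includes the other gene that passed. Ldha (mm10, chromosome 7, 46841475 to 46855627, plus strand), whose subunit favours the reduction of pyruvate to lactate, was at 377, 423, 378, 409 and 412 CPM in WT and at 459.5, 459, 468 and 482 CPM in KO. The KO libraries lay close together and all above WT 2, the highest WT library. Ldha rose from 399.8 ± 20.8 (SD, n = 5) to 467 ± 10.8 CPM (SD, n = 4), a log2 fold change of 0.22 ± 0.04 (SE, 95% interval 0.13 to 0.32, edgeR adjusted p = 0.0183). It passed without each of 7 libraries in turn, and its adjusted p was 0.0578 without WT 3 and 0.0619 without KO 4, with a log2 fold change of 0.20 to 0.25 over these fits. The log2 fold change was 0.21 without KO 1 and KO 4 (adjusted p = 0.0803) and 0.21 with 1 surrogate variable (adjusted p = 0.105). Ldhb, the heart-type subunit that favours the return of lactate to pyruvate, was at 42.1, 51.6, 41.4, 38.8 and 37.6 CPM in WT and at 35.8, 40.4, 36.6 and 40.7 CPM in KO. The groups overlapped and WT 2 was far above the rest (log2 fold change -0.14, adjusted p = 0.365), and without WT 2 the log2 fold change was -0.06.

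**Figure D1:**
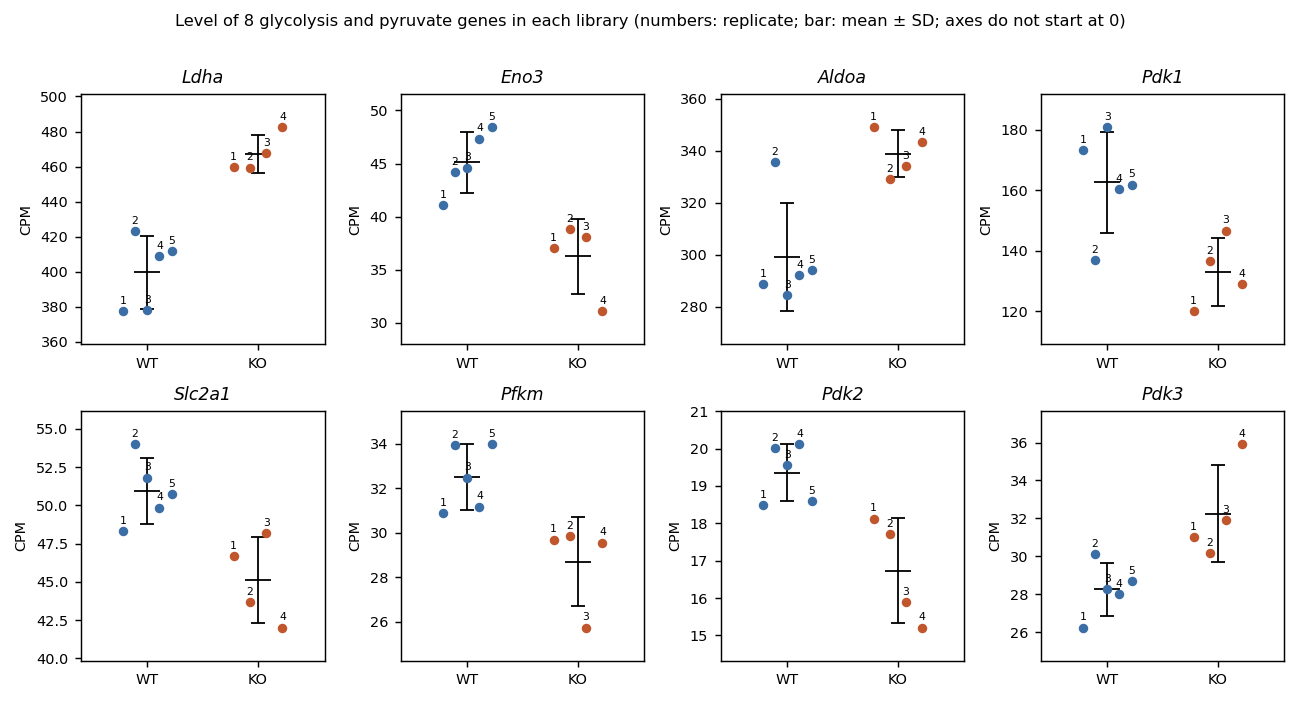
Level in CPM of 8 genes of the route in each library, WT in blue and KO in orange, with replicate numbers beside the points, bars for the mean ± SD and axes that do not start at 0. The Ldha libraries separate completely (377 to 423 CPM in WT, 459 to 482 CPM in KO), as do those of Eno3, Slc2a1, Pfkm, Pdk2 and Pdk3, whereas WT 2 lies among the KO libraries for Aldoa and Pdk1.

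Lactate export leaves the cell through Slc16a1 (MCT1) and Slc16a3 (MCT4). Slc16a1 was at 31.7, 35.9, 38.2, 39.7 and 37.2 CPM in WT and at 42.7, 32.9, 36.6 and 40.8 CPM in KO, with overlapping groups (adjusted p = 0.668). Slc16a3, the exporter known from highly glycolytic cells, was at 9.07, 17.3, 11.96, 9.93 and 11.7 CPM in WT and at 10.3, 10.9, 11.5 and 10.2 CPM in KO. WT 2 stood alone, and without it the log2 fold change went from -0.17 to 0.01. Bsg (basigin), the chaperone that brings these exporters to the membrane, was at 108, 114, 103, 111 and 108 CPM in WT and at 120.4, 122, 122 and 124 CPM in KO. All KO libraries were above all WT libraries, and Bsg passed, at a log2 fold change of 0.16 (edgeR adjusted p = 0.0343).

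The pyruvate dehydrogenase kinases, which phosphorylate and switch off pyruvate dehydrogenase, had fold changes of both signs, and none passed in the edgeR test of all 9 libraries. Pdk1 (mm10, chromosome 2, 71873224 to 71903858, plus strand), the hypoxia-inducible form, was at 173, 137, 181, 160.3 and 162 CPM in WT and at 120.0, 137, 147 and 129 CPM in KO. WT 2 was inside the KO range and the other 4 WT libraries were above it, and the log2 fold change of -0.29 ± 0.08 did not pass (edgeR adjusted p = 0.0753). It passed with DESeq2 (-0.29, adjusted p = 0.0116). Without WT 2 it was -0.35 and passed (adjusted p = 0.0138), and without KO 4 it was -0.28 and did not (adjusted p = 0.203). Leaving out KO 1 and KO 4 together gave -0.20 (adjusted p = 0.401). Pdk1 passed in 3 of 20 alternative settings, the same as for Aldoa, where the fit without WT 2 and the bracketed block are nearly 1 fit. Pdk2, the form found in most tissues, was at 18.5, 20.0, 19.6, 20.1 and 18.6 CPM in WT and at 18.1, 17.7, 15.9 and 15.2 CPM in KO. The groups did not overlap, with KO 1 close to WT 1, at -0.21 ± 0.07 (adjusted p = 0.120). Pdk3 was at 26.2, 30.1, 28.3, 28.0 and 28.7 CPM in WT and at 31.0, 30.2, 31.9 and 35.9 CPM in KO. Here too the groups did not overlap, in the other direction and by little between WT 2 and KO 2, at 0.19 ± 0.06 (adjusted p = 0.106). Pdk3 lies on the X chromosome, as do Pgk1 and Pdha1, and leaving out KO 4 gave 0.13 for Pdk3 (adjusted p = 0.316). In that fit 103 genes in all passed, against 418 with every library.

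The subunits of pyruvate dehydrogenase did not pass. Pdha1, the subunit that the kinases phosphorylate, was at 209, 211, 216, 210.5 and 198 CPM in WT and at 201, 204, 214 and 212.5 CPM in KO (log2 fold change -0.01, 95% interval -0.09 to 0.07, adjusted p = 0.941). The Pdhb interval was -0.10 to 0.10 (adjusted p = 0.995) and that of Dlat, the acetyltransferase core, -0.13 to 0.07 (adjusted p = 0.742). Dlat was at 39.8, 38.0, 37.9, 38.0 and 38.0 CPM in WT and at 36.4, 37.2, 36.2 and 40.3 CPM in KO, a tight set apart from WT 1 and KO 4. The oxygen-sensing genes did not pass either: Vhl, which marks hypoxia-inducible factor for destruction, was at 29.2 ± 1.94 and 30.7 ± 1.51 CPM (adjusted p = 0.532). The hydroxylases that label the factor for Vhl were at 74.1 ± 1.99 and 74.4 ± 5.90 CPM for Egln1 (adjusted p = 0.964) and 7.77 ± 1.10 and 8.75 ± 1.30 CPM for Egln3 (adjusted p = 0.475).

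**Figure D2:**
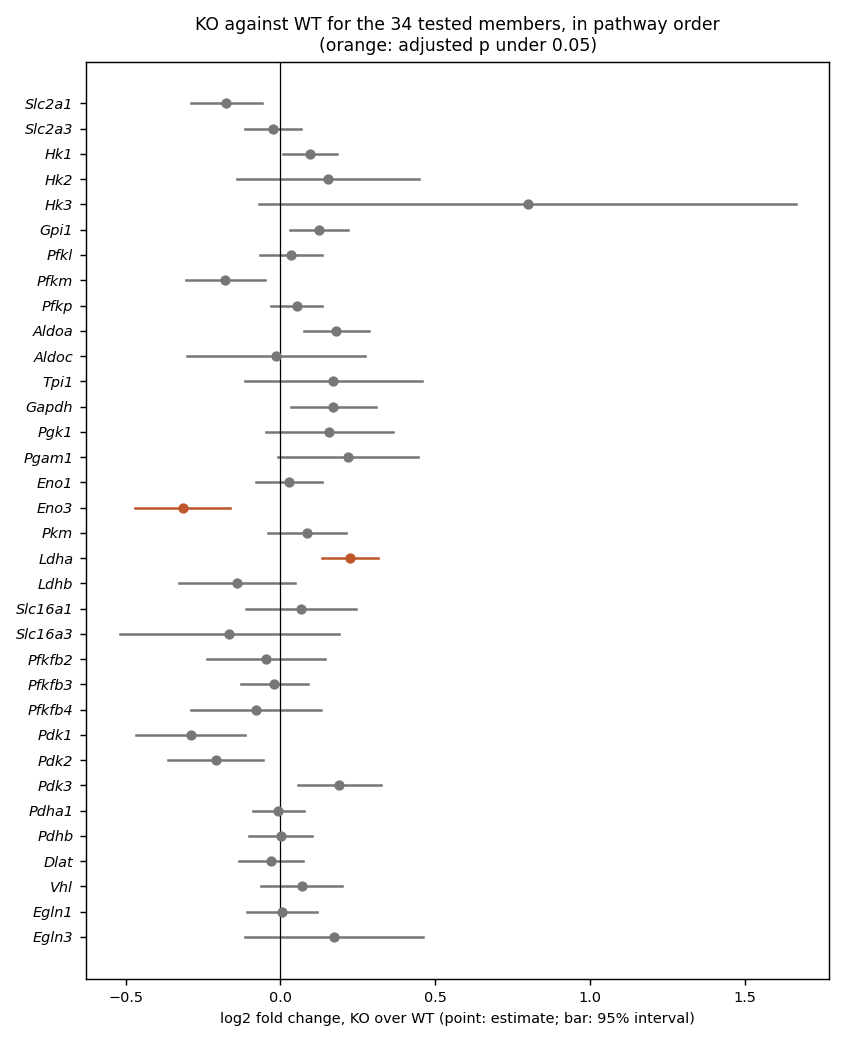
Log2 fold change (KO over WT) of the 34 tested genes in pathway order, with the edgeR estimate as a point and its 95% interval as a bar, in orange where the adjusted p was under 0.05. Ldha (0.22) and Eno3 (-0.32) are the genes in orange, and Hk3 has the widest interval, from -0.07 to 1.66.

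The mix of forms at a step does not depend on scaling between libraries, so the share of 1 form in the summed level of its step, per transcript length, was compared for 9 steps by a two-sided exact permutation test. The design allows no p below 0.0159, and none of the 9 shares passed after Benjamini-Hochberg adjustment. With 9 shares, 2 at that smallest p adjust to 0.0714. Neither can then pass 0.05, whatever the size of its difference, unless further shares reach the smallest p too. Ldhb made up 13.1%, 14.2%, 12.9%, 11.4% and 11.02% of lactate dehydrogenase in WT and 9.56%, 10.6%, 9.59% and 10.3% in KO. The groups did not overlap, at 12.5% ± 1.30 (SD, n = 5) and 10.01% ± 0.530 (SD, n = 4), with exact p = 0.0159 and an adjusted p of 0.0714. Eno3 made up 22.1%, 21.1%, 21.9%, 23.6% and 24.8% of Eno1 and Eno3 together in WT and 20.1%, 18.8%, 19.4% and 16.7% in KO. Again the groups did not overlap, at 22.7% ± 1.47 and 18.8% ± 1.47, with exact p = 0.0159 and an adjusted p of 0.0714. Pdk1 made up 61.8%, 53.3%, 61.2%, 58.2% and 58.8% of the kinases in WT and 50.5%, 54.3%, 56.1% and 51.1% in KO. WT 2 lay inside the KO range, at 58.7% ± 3.38 and 53.0% ± 2.65 (exact p = 0.0476, adjusted 0.143), while the share of Pdk3 was 25.1% in WT and 31.6% in KO.

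The remaining shares did not pass either. Hk2 held 2.49% of hexokinase in WT and 2.57% in KO against 96.7% for Hk1 in WT, and Aldoc held 1.05% and 0.913% of aldolase. Pfkp held 54.6% ± 1.41 of phosphofructokinase in WT and 56.3% ± 0.764 in KO (exact p = 0.0794, adjusted 0.143), while Pfkm held 17.3% and 15.1%. The share of Slc2a3 gave exact p = 0.0635 (adjusted 0.143), that of Slc16a3 was 24.9% ± 4.80 and 22.4% ± 2.81 (exact p = 0.460) with a difference of -2.50 points that was -0.479 points without WT 2, and that of Pfkfb3 was 75.3% and 75.9% (exact p = 0.667). The shares depend on the length used: with all annotated exons of a gene in place of its principal coding transcript, a choice made after seeing the data, Eno3 held 39.5% in WT and 34.0% in KO. Its adjusted p stayed at 0.0714, the value that 2 shares at the smallest possible p receive. Pfkp then held 35.6% of phosphofructokinase in WT, beside 33.1% for Pfkl and 31.3% for Pfkm.

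**Figure D3:**
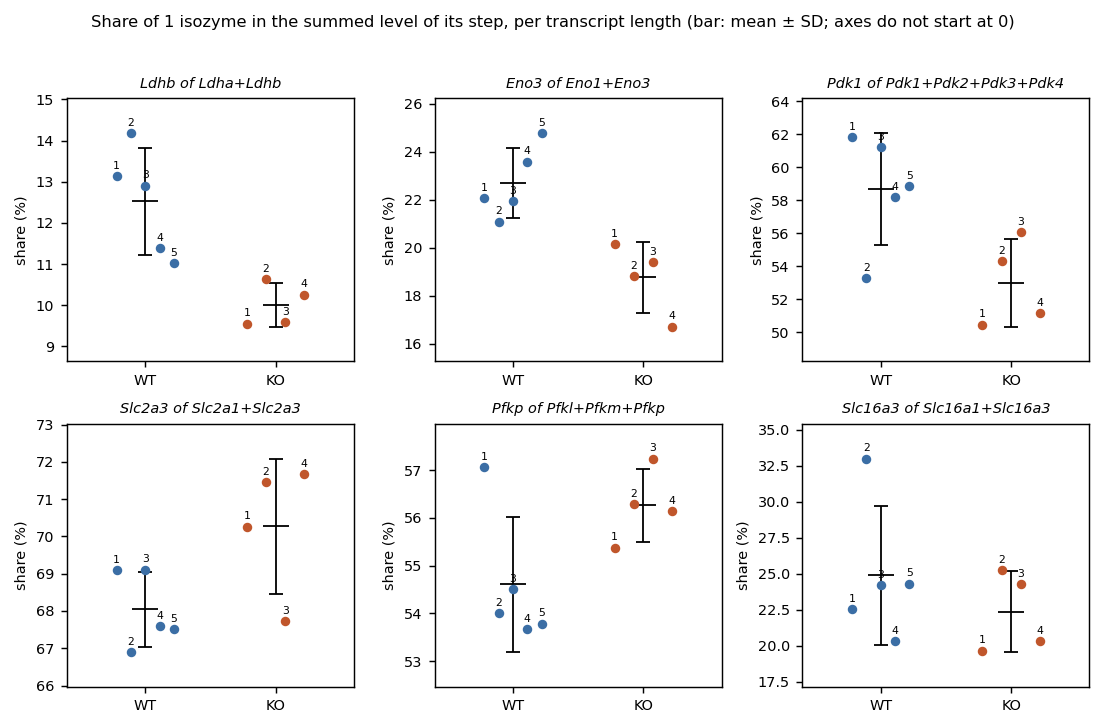
Share in percent of 1 form in the summed level of its step, per transcript length, for 6 of the 9 steps in each library, with bars for the mean ± SD and axes that do not start at 0. The Ldhb and Eno3 shares do not overlap between groups, and WT 2 is an extreme among WT libraries for Ldhb (14.2%), Pdk1 (53.3%) and Slc16a3 (33.0%).

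The library named B6-N-Treg-2, here WT 2, differed from the other WT libraries along much of the route. It was the highest of the 5 WT libraries for 14 of the 34 genes, against 24.1% of all genes tested, and the lowest for 3, against 22.1%. It was above the mean of the other 4 for 24 of the 34 genes, against 49.7% of all genes tested, with a median difference of 0.08 on the log2 scale. Such leanings were not limited to WT 2. WT 1 was the lowest WT library for 12 genes (23.8% of all genes tested) and the highest for 7 (26.6%). KO 4 was the highest KO library for 12 (24.4%) and the lowest for 9 (24.8%), with a median difference of 0.06 from the other KO libraries. In WT 2, several genes stood out. Slc16a3 was 0.70 higher on the log2 scale (17.3 CPM against 10.7 ± 1.397, SD, n = 4), Tpi1 0.41 higher, Ldhb 0.37 higher, Pgk1 0.36 higher, Pkm 0.25 higher and Aldoa 0.21 higher. Pdk1 went the other way, at 137 CPM against 169 ± 9.70, and so did the weakly detected Hk3, at -0.40. Eno3 (-0.03), Slc16a1 (-0.02) and Pfkl (0.00) in WT 2 were near the other WT libraries.

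Without WT 2, 4 of the 34 genes passed, while 5.52% of all genes tested did. Ldha (log2 fold change 0.25, adjusted p = 0.0109) and Eno3 (-0.32, adjusted p = 0.0344) were joined by Aldoa (0.23, adjusted p = 0.00793) and Pdk1 (-0.35, adjusted p = 0.0138). Without KO 4, by contrast, 0 of the 34 genes and 103 of all genes passed, and without KO 1 and KO 4 together 0 and 118 did. Aldoa, Tpi1 and Pkm are genes for which WT 2 stood alone among WT, while Ldha in WT 2, at 423 CPM, was close to WT 5, at 412 CPM.

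**Figure D4:**
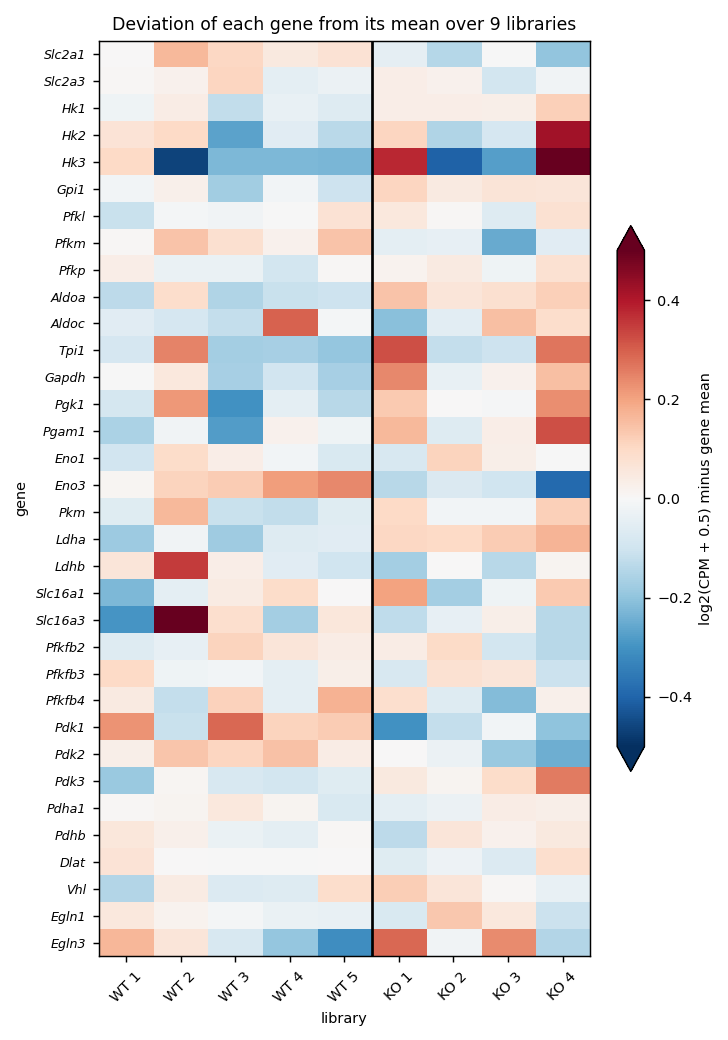
Deviation of each of the 34 tested genes from its mean over the 9 libraries, as log2(CPM + 0.5), with genes in pathway order down the side, libraries across, red above and blue below the mean, and colours that stop at ±0.5. WT 2 is red for Tpi1, Pgk1, Pkm, Ldhb and Slc16a3 and blue for Hk3 and Pdk1, and KO 1 and KO 4 share the red of WT 2 at Tpi1, Gapdh, Pgk1 and Pkm.

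WT 2, KO 1 and KO 4 were also the libraries with most RNA of cycling cells. The markers Mki67, Top2a, Ccnb1, Birc5 and Cdk1 summed to 169, 337, 147, 192 and 170 CPM in WT and to 492, 213, 270 and 604 CPM in KO, and 0 of 5 passed. For 7 of the 34 genes (20.6%) these 3 libraries were the 3 highest, against 6.11% of all genes tested: Hk1, Hk2, Aldoa, Tpi1, Gapdh, Pgk1 and Pkm. They were the 3 lowest for 0 of the 34 genes, against 4.99% of all. The set of 3 libraries was chosen after their values were seen. For Ldha, the 4 KO libraries were the 4 highest and WT 2 came next. Markers of activated cells (Cd44, Icos, Tnfrsf4, Tnfrsf9 and Klrg1) summed to 804 CPM in WT 2, 966 in KO 1 and 866 in KO 4 against 664 to 786 CPM elsewhere, and Icos passed. Markers of resting cells summed to 3093, 2655 and 2573 CPM in those libraries against 3084 to 3430 CPM elsewhere, and Bcl2 was lower. The part of cycling and activation in these values was not tested.

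**Figure D5:**
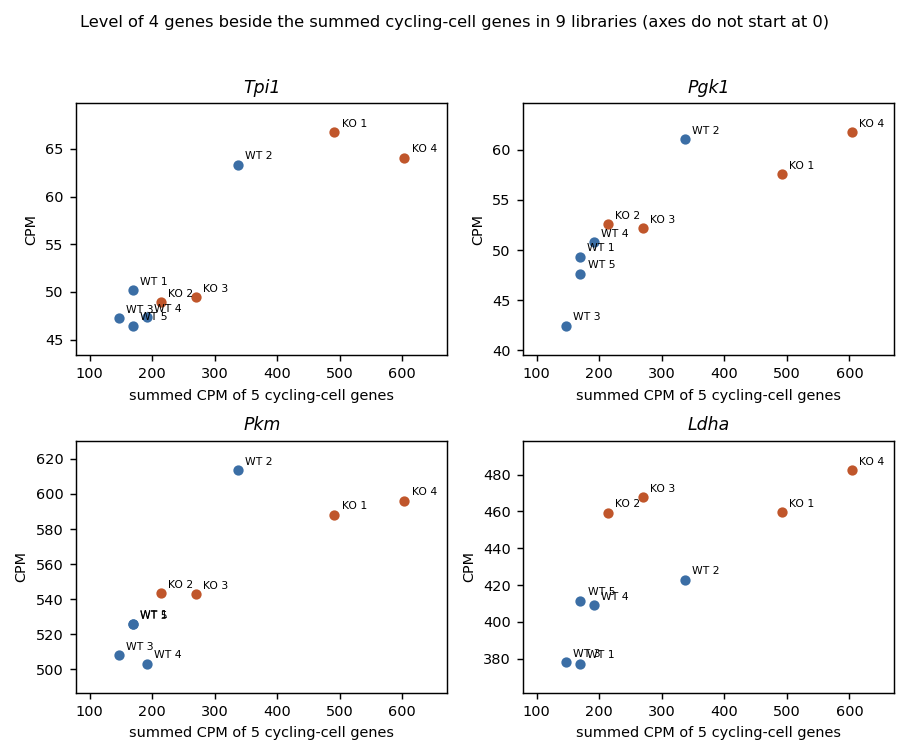
Level in CPM of Tpi1, Pgk1, Pkm and Ldha against the summed CPM of 5 cycling-cell genes in the 9 libraries, WT in blue and KO in orange, with axes that do not start at 0. WT 2, KO 1 and KO 4 are highest for Tpi1, Pgk1 and Pkm, while all 4 KO libraries are above all WT libraries for Ldha.

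Genes next to the route were read from lists of related genes. No list was tested as a set, and so few calls in a list are not read as a result about it. Among 22 tested neighbours (other isozymes, transporters, and enzymes around pyruvate), the median log2 fold change was 0.03, against 0.01 over all genes tested. In this list 1 gene was higher and 1 lower, where 1.4% and 1.88% of all genes tested were. The higher gene was Bsg. The lower gene was Slc2a9, a transporter known mainly for urate, at 25.0, 25.2, 27.1, 25.7 and 24.2 CPM in WT and 20.4, 17.8, 17.1 and 16.3 CPM in KO. These ranges were far apart, and the log2 fold change of -0.51 (adjusted p = 0.00486) was larger in size than that of Eno3. Among 17 tested regulators of glycolysis in T cells, 0 were higher and 1 was lower, where 1.88% of all genes tested were lower. Tsc1, which restrains the growth kinase mTOR, fell to 85.6 ± 4.73 CPM in KO against 98.7 ± 2.54 in WT, which is -0.21 on the log2 scale (adjusted p = 0.0258).

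Some values carry a limit of counting. Near-identical copies, aligned over at least 200 bases at 95% identity or more, exist for 10 of the 35 genes. Gapdh has 77, and the 70 in the table held counts equal to 4.61% of those of Gapdh. The copies of Ldhb held 2.80% and those of Ldha 0.0512% of their gene's counts, and Eno3 and Pdk1 have none. The rule for reads that match a gene and a copy equally well was not given. If such reads were dropped, genes with copies, among them Ldha, Pkm, Gapdh, Gpi1, Eno1 and Pgam1, would read too low. Their order by level, and shares that include Ldha, Ldhb or Eno1, carry the same limit. Aldoa overlaps Fam57b, Pfkm overlaps Senp1, Gapdh overlaps Iffo1 and Hk1 overlaps Hk1os, each on the opposite strand. Further such overlaps include Tpi1 with Spsb2, Gpi1 with Gm26762, Hk2 with Gm17034, Hk3 with Unc5a, Pfkp with Pitrm1, Pdha1 with Map3k15 and Pfkfb2 with Yod1. Reads of such pairs cannot be told apart without the strand setting, while Ldha, Eno3 and Pdk1 overlap no annotated gene.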

How the data were processed

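Libraries were made with a stranded TruSeq kit from total RNA, per the labels' protocols. Raw counts by gene symbol, as deposited by the authors, came in a table whose 9 columns each matched 1 sample title. STAR 2.7, DESeq2 and mm10 appear in the submitters' processing notes, without their roles. The program, annotation and strand rule used for counting were not given in these sources.

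KO and WT were compared with edgeR 4.0.16 under R 4.3.3 (trimmed-mean scaling, default expression filter, robust quasi-likelihood fit) on all 9 libraries, adjusted over 12738 genes by Benjamini-Hochberg. The procedure was also run on simulated counts, drawn independently for each gene. That run does not cover shifts that many genes of a library share, and no result here rests on it. CPM use the same scaling. Lengths are those of the principal coding transcript in GENCODE M21. The 9 shares were compared over all 126 ways to divide the libraries. Promoters come from RefSeq (GRCm38.p6).

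The genes and lists were chosen with earlier results of these data known. Values per library are given for genes that passed, had an unadjusted p under 0.05, led their step, entered a share or had an outlying library. Of other lists, genes that passed are named, and Hif1a and Eno2, which did not pass, are named outside that rule.

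Alternatives were other scalings and filters, DESeq2 1.42.0, limma-voom (limma 3.58.1), replicate blocks, a surrogate variable (sva 3.50.0), other share measures and leaving out libraries.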

Additional observations from a re-analysis of the deposited data

Results flagged for a closer look

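For each gene and each share, the highest or lowest library of each group was compared with its nearest neighbour by Dixon's ratio at the 95% level. Of 86 groups tested, 8 held a library that stood apart. The level flags about 1 in 20 of independent groups with normally distributed values. These groups are not independent, since shares reuse the counts of the genes, so no excess is read from this count. WT 2 was that library for 3 genes: Aldoa at 335.5 CPM against 284.5 to 294.06 in the other WT libraries, Tpi1 at 63.353 CPM against 46.5 to 50.2, and Pkm at 613.53 CPM against 503 to 526. WT 1 stood apart for Dlat, at 39.827 CPM against 37.9 to 38.0, and for the share of Pfkp in phosphofructokinase, at 57.071% against 53.7% to 54.5%. WT 4 stood apart for Aldoc, at 7.1688 CPM against 5.25 to 5.70. Among KO libraries, KO 4 stood apart for Hk1, at 238.29 CPM against 223 to 224, and KO 3 for Pfkm, at 25.735 CPM against 29.6 to 29.9. Neither Ldha nor Eno3 had such a library in either group.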

How the results depend on the processing

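The fold changes of the 11 genes with unadjusted p under 0.05 kept their direction under all 20 alternatives, and the calls did not. DESeq2 called 906 genes and 4 of the route (Aldoa, Eno3, Ldha and Pdk1), 1 surrogate variable 56 and 0, and leaving out KO 1 and KO 4 together 118 and 0. Leaving out each library in turn gave 97 to 697 genes and 0 to 4 of the route, with 0 without WT 3 or KO 4 and 4 without WT 2. Other scalings, filters and limma-voom each called 2 of the route, from 355 to 522 genes in all. Of the 9 shares, that of Hk2 ranged from -0.0912 points (without KO 4) to 0.194 points as each library was left out, and was -0.215 points without KO 1 and KO 4, while that of Pfkfb3 ranged from -0.337 points (without KO 3) to 1.25 points. The other 7 shares kept their direction in all of these, although that of Slc16a3 went from -2.50 to -0.110 points without KO 1 and KO 4. With a replicate block by title number, 26 genes and 0 of the route passed (Ldha adjusted p = 0.132), and with the bracketed number as a replicate block 443 and 3 (Aldoa, Ldha and Pdk1; Eno3 adjusted p = 0.0625). Same-numbered libraries did not deviate together (correlations -0.0669 to 0.100 for title numbers and -0.260 to 0.0990 for bracketed ones). These values give no sign that the numbers pair the mice, but so few pairs cannot exclude a weak shared effect. Weakly expressed genes such as Hk3 had the widest intervals.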

Other observations

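Branches of glucose metabolism off the route gave 0 higher and 2 lower genes among 19 tested, with 12 positive and a median log2 fold change of 0.07. Over all genes tested, 1.4% were higher and 1.88% lower, with 51.5% positive and a median of 0.01. Pgm1, which links glucose 6-phosphate to glycogen and sugar nucleotides, was at 29.4, 31.1, 29.3, 29.6 and 30.2 CPM in WT and at 23.7, 22.5, 25.1 and 26.7 CPM in KO (-0.29, edgeR adjusted p = 0.0205). Gpd2, the mitochondrial enzyme of the shuttle that carries electrons from cytosolic NADH to the respiratory chain, was at 26.3, 27.1, 27.0, 27.3 and 27.2 CPM in WT and at 17.3, 26.2, 19.3 and 19.0 CPM in KO. KO 2 lay just below the WT range and the other 3 KO libraries far below it (-0.40, adjusted p = 0.0482). Among 16 tested genes of the hypoxia response outside glycolysis, 0 were higher and 1 was lower: the histone demethylase gene Kdm3a fell from 145 to 124 CPM (-0.23, adjusted p = 0.0391). Hif1a itself was at 281 ± 25.0 CPM in WT (SD, n = 5) and 329.6 ± 44.7 CPM in KO (SD, n = 4), and did not pass (0.23, adjusted p = 0.188).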
